A study of Mus musculus with 18 samples.

Results

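Immediate early genes are genes whose transcription starts within minutes of a stimulus and needs no new protein. Of these, 10 were followed here, library by library, in RNA from mouse pancreatic islets: Fos, Fosb, Jun, Junb, Egr1, Egr2, Ier2, Ier3, Klf4 and Klf6. They were chosen by gene symbol, as genes known to respond to stimulation and to tissue handling, and not by a threshold on measured values. Earlier results of these data were known when they were chosen. All 10 were among the 53801 mouse genes listed, and all 10 were among the 18364 genes with enough counts to be tested. The islets came from 5-week-old mice kept on normal chow, and RNA-seq was made from 18 libraries in 4 groups. These were 4 libraries from wild-type (WT) males, 4 from males heterozygous for the S64F variant of MafA (S64F/+), 5 from WT females and 5 from S64F/+ females. MafA is a transcription factor of mature beta cells that drives the insulin genes, and S64F is a single amino acid change linked by the study's title to a monogenic form of diabetes. The labels do not say whether libraries of one group came from separate animals or pools, and the p-values therefore reflect the spread among the libraries sequenced, which may be technical.

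The immediate early response is relayed by transcription factors that are already present in the cell, such as serum response factor bound to the CArG box and CREB bound to the cAMP response element. Its first products are mostly transcription factors themselves: Fos and Jun family proteins pair to form AP-1, EGR proteins and Krüppel-like factors bind GC-rich DNA, and they switch on a later set of genes. In islets the response is known to follow glucose and calcium entry, and enzymatic digestion and handling of tissue are known to start it in many organs.

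Promoter sequences are shown for the 4 genes that differed between genotypes, Egr2, Ier3, Klf6 and Klf4, and for Fos, whose level is the yardstick for the variation between libraries described further on. Promoters from RefSeq on GRCm38.p6 were used for 8 of the 10 genes, with 12 start sites. Those of Egr1 and Ier2 were not searched, so nothing is known here of their motifs. The 250 bases before each start were searched on both strands. Each is printed 5′ to 3′ on the strand of the gene, without bases that GENCODE annotates as exon. Capitals mark a CArG box or the letters TGACG, the shorter form of the cAMP response element, which reads CGTCA when it lies on the other strand. The Egr2 window lies within the bounds of the gene, outside its annotated exons, before 1 of 5 RefSeq start sites.
Egr2, chr10:67537619-67537868, + strand: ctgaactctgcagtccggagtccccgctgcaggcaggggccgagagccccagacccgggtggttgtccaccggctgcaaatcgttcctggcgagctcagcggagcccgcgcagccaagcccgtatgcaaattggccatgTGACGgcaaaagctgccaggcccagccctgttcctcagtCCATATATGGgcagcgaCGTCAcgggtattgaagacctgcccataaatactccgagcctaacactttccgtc
Fos, chr12:85473640-85473889, + strand: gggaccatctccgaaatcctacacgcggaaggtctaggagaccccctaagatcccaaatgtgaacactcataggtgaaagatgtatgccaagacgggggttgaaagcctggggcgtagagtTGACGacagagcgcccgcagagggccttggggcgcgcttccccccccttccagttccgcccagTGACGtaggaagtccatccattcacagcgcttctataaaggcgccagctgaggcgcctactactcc
Klf4, chr4:55532476-55532725, - strand: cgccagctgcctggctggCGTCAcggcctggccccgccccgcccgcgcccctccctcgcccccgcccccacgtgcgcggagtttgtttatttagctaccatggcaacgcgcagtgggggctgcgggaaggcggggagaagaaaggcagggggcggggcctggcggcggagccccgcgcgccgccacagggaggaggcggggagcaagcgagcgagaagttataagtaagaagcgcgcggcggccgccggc
Ier3, chr17:35821463-35821683, + strand: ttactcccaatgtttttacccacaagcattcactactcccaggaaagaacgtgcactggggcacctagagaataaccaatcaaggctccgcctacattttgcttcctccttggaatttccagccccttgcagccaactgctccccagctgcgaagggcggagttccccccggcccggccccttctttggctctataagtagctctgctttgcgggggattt
Klf6, chr13:5861239-5861481, + strand: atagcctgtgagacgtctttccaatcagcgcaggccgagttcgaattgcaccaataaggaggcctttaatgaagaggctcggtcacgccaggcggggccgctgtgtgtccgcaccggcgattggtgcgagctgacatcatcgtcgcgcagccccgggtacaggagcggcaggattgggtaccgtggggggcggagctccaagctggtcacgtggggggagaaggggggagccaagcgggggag

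The Egr2 window held a CArG box at positions -72 to -63 from the start site, with TGACG on either side of it, and the windows of 4 of the 5 Egr2 start sites held a CArG box. Of these windows 3 overlap and hold the same box, so there were 2 distinct boxes. Of the 32851 RefSeq promoters searched in the same way, 1.47% held a CArG box and 17.8% held TGACG. Fos held TGACG at -129 to -125 and again at -66 to -62, and Klf4, Fosb and Junb held it once each. The Ier3 and Klf6 windows held neither, and among these motifs held only the GC box GGGCGG, which 32.7% of promoters hold. None of the windows of the 8 genes held the whole cAMP response element TGACGTCA, an AP-1 site TGANTCA, or TGCTGAC or TGCTGAG, which is one side of the element that MAF proteins bind. These elements were found in 1.55%, 6.75% and 9.72% of all promoters. A match describes the letters only and was not tested for binding. Bases farther than 250 before a start were not searched, so the absence of a motif, such as a CArG box in Fos, holds for these windows only.

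Library depth ran from 19.3 to 108.7 M counts. Values are given as CPM, counts scaled to a common library size by the trimmed mean of M values (TMM), unless FPKM is named. The FPKM are the deposited values, which divide by gene length and do not carry the TMM scaling. They therefore serve here to compare genes within a group or library, not groups. Mean Fos in WT and S64F/+ males was 182 and 227 FPKM but 837 and 901 CPM. A gene was called changed where the edgeR quasi-likelihood test gave a Benjamini-Hochberg adjusted p under 0.05 over all genes tested. Mafa itself fell by 2.20 ± 0.22 (log2, SE) in males, from 905 ± 80.8 to 197 ± 52.3 CPM (SD, n = 4 each), and by 2.00 ± 0.20 in females, from 639 ± 117 to 160 ± 49.8 CPM (SD, n = 5 each). These counts sum both alleles and do not check the genotype. The summed level of 10 beta-cell markers, insulin among them, ran from 127000 to 308400 CPM over the 18 libraries. In whole-islet RNA, fewer cells of a type and less RNA per cell cannot be told apart.

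Within the islets the 10 genes spanned a wide range of levels. Per length, Fos and Jun were the most abundant and Egr2 the least in all 4 groups. In WT males Fos had 182 ± 37.7 FPKM (SD, n = 4) and Jun 153 ± 26.6, followed by Junb at 97.9 ± 19.4, Egr1 at 70.3 ± 14.6 and Ier2 at 53.2 ± 14.9. Fosb, with 11.1 ± 3.40 FPKM, Klf4 with 7.46 ± 1.78, Klf6 with 5.29 ± 0.99 and Ier3 with 4.98 ± 0.76 formed a lower tier, and Egr2 stood at 0.139 ± 0.082. Of neighbours in this order, only Jun and Junb, Ier2 and Fosb, and Ier3 and Egr2 had ranges that did not overlap. The gap between Ier2 and Fosb and the gap above Egr2 were present in all 4 groups. In S64F/+ males Jun (236 ± 42.5 FPKM) and Fos (227 ± 56.0) changed places, with Jun above Fos in 2 of 4 libraries, a difference within their spread.

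**Figure D1:**
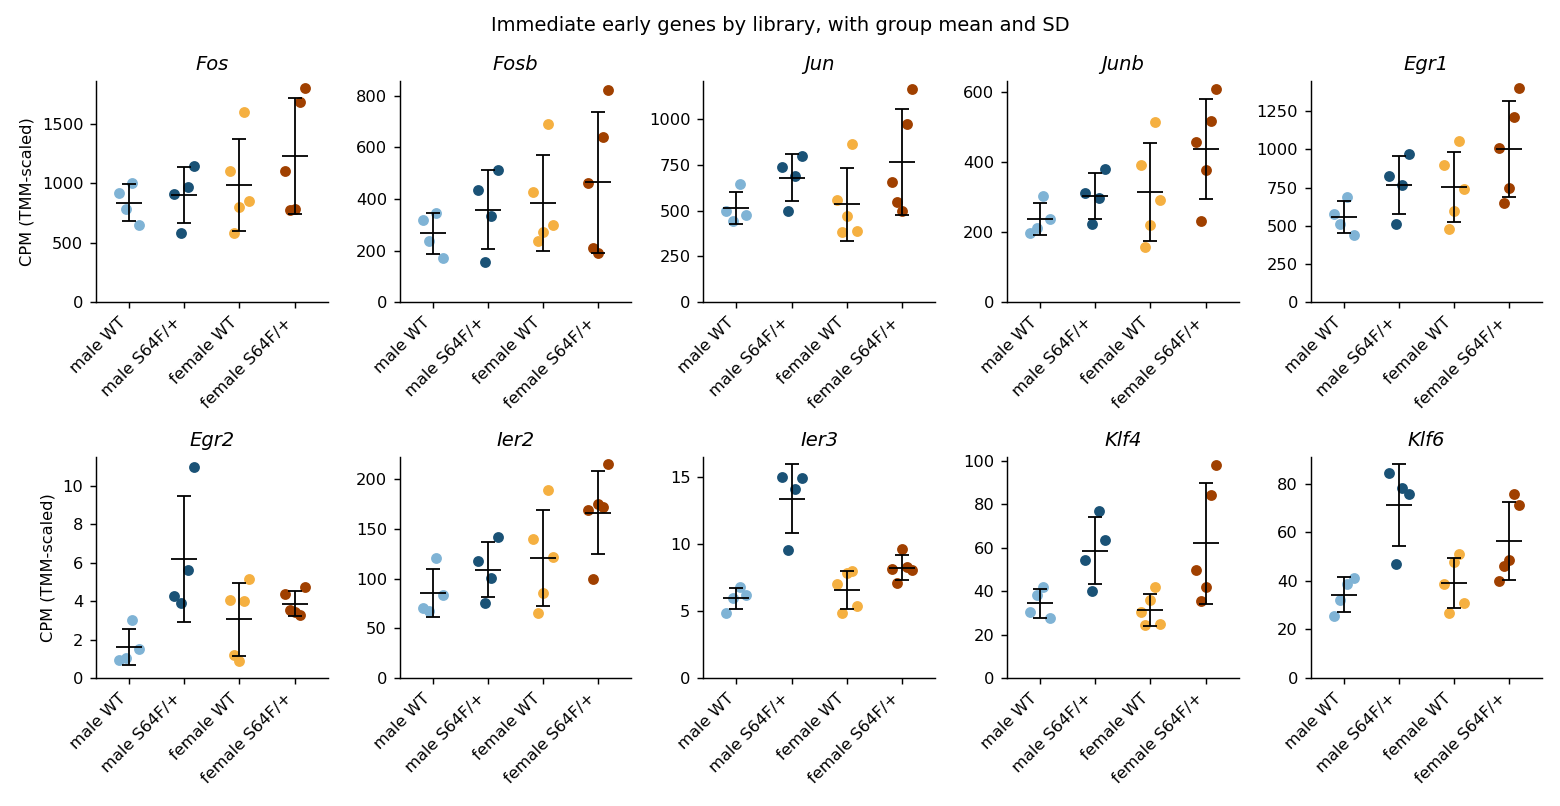
Level of each of the 10 genes (CPM, linear axis from 0) in each of the 18 libraries, by group. Points are libraries, long bars are group means and the error bars are 1 SD. For Egr2, Ier3 and Klf6 the male S64F/+ points lie above all male WT points, and for the other genes the 2 male groups overlap.

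In male islets Egr2, Ier3 and Klf6 were higher in S64F/+ than in WT, by 3.81-fold, 2.25-fold and 2.07-fold. They were 3 of 10, where 15.4% of all genes tested were called higher and 27.6% were called in either direction, and none of the 10 was called lower. The same 3 genes were those whose male ranges did not overlap, and 17.8% of all genes had a higher range that did not overlap. The estimate lay above 0 for 10 of 10, as for 47.0% of all genes. Since these genes vary together from library to library, the 10 estimates are not independent of each other. Their median log2 fold change was 0.45, against -0.03 over all genes.

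Among the AP-1 genes no difference between the male genotypes passed the test. Fos, which forms AP-1 only with a Jun partner, measured 919, 782, 1002 and 646 CPM in WT and 909, 583, 965 and 1146 CPM in S64F/+ males. The S64F/+ libraries held both the lowest and the highest value, and the estimate was 0.11 ± 0.32 (log2, SE), with an edgeR adjusted p of 0.844. Fosb, a close relative of Fos, gave 0.43 ± 0.49, Jun 0.40 ± 0.28 and Junb, which can dampen Jun activity, 0.35 ± 0.32, with overlapping ranges for each. The reads of Jun and Junb can include some from genes on the opposite strand, since the strand setting is not given in the sources used here. Junos, antisense to Jun, held 1266 counts over all libraries against 514941 for Jun, and Prdx2, which overlaps the 3′ end of Junb, held 89781 against 275933 for Junb.

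Of the 2 EGR genes, Egr2 was called in males and Egr1 was not. Egr2 (ENSMUSG00000037868, chr10:67535475-67542188, + strand) encodes a zinc-finger factor best known for its part in Schwann cell myelination and in the hindbrain. It measured 0.940, 1.04, 2.99 and 1.48 CPM in WT and 4.25, 3.92, 5.64 and 10.98 CPM in S64F/+ males, from 17 to 90 and from 127 to 449 counts. All 4 S64F/+ libraries were above all 4 WT libraries, although the highest S64F/+ value was 2.80 times the lowest. The log2 fold change was 1.93 ± 0.51 (edgeR adjusted p 0.00920), and 1.503 (adjusted p 0.0382) without male S64F/+ 4, the library with the highest level. Egr1, a zinc-finger factor that glucose is known to induce in beta cells, was far more abundant per length and measured 580.2, 515, 687 and 440 CPM in WT and 827, 515, 767 and 967 CPM in S64F/+ males. Its groups overlapped through male S64F/+ 2, which sat among the WT libraries, and the estimate of 0.47 ± 0.26 did not pass the test (edgeR adjusted p 0.206).

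Of the 2 genes named immediate early response, Ier3 rose in males and Ier2 did not pass the test. Ier3 (ENSMUSG00000003541, chr17:35821684-35822923, + strand) encodes a stress-induced protein that modulates cell survival. It measured 4.81, 5.99, 6.75 and 6.15 CPM in WT males and 14.95, 9.54, 14.05 and 14.86 CPM in S64F/+ males. The WT libraries were close together, 3 S64F/+ libraries were close together above them, and male S64F/+ 2 lay between. The log2 fold change was 1.17 ± 0.18 (edgeR adjusted p 8.87e-05). Ier2, which encodes a small nuclear protein, ran from 67.3 to 120.3 CPM in WT and from 75.6 to 142 CPM in S64F/+ males, with overlapping ranges and an estimate of 0.35 ± 0.30.

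Both Krüppel-like factors, which bind GC-rich promoter DNA, were estimated higher in S64F/+ males. Klf6 (ENSMUSG00000000078, chr13:5861482-5870394, + strand), a widely expressed factor induced on tissue injury, measured 25.4, 32.0, 38.8 and 41.2 CPM in WT and 84.2, 46.7, 78.3 and 75.5 CPM in S64F/+ males. The groups did not overlap, and again male S64F/+ 2 was the lowest of its group. The log2 fold change was 1.05 ± 0.25 (edgeR adjusted p 0.00497). Klf4 (ENSMUSG00000003032, chr4:55527143-55532466, - strand), a factor also used to reprogram cells, measured 30.2, 38.0, 41.9 and 27.5 CPM in WT and 54.2, 39.8, 76.8 and 63.6 CPM in S64F/+ males. Male S64F/+ 2 fell inside the WT range, and the estimate of 0.77 ± 0.30 missed the threshold (edgeR adjusted p 0.0706). It passed with library-size scaling (edgeR adjusted p 0.0190), with DESeq2 (0.0219), when only the 2 male groups were fitted (edgeR, 0.0219), and without male S64F/+ 2 (edgeR, 0.0464) or female S64F/+ 5 (edgeR, 0.0416). Plain library-size scaling raised the median of all genes by 0.22 in this comparison and also brought Egr1 past the threshold, for 5 genes called. It called 4248 of all 18364 genes tested higher and 666 lower, against 2819 and 2252 with the main scaling. With that scaling 86.4% of all male calls were higher, against 55.6% with the main scaling. Relative to the median of all genes, the estimates of Egr1 and Klf4 were nearly the same under both scalings, at 0.50 and 0.49 for Egr1 and 0.79 and 0.78 for Klf4.

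**Figure D2:**
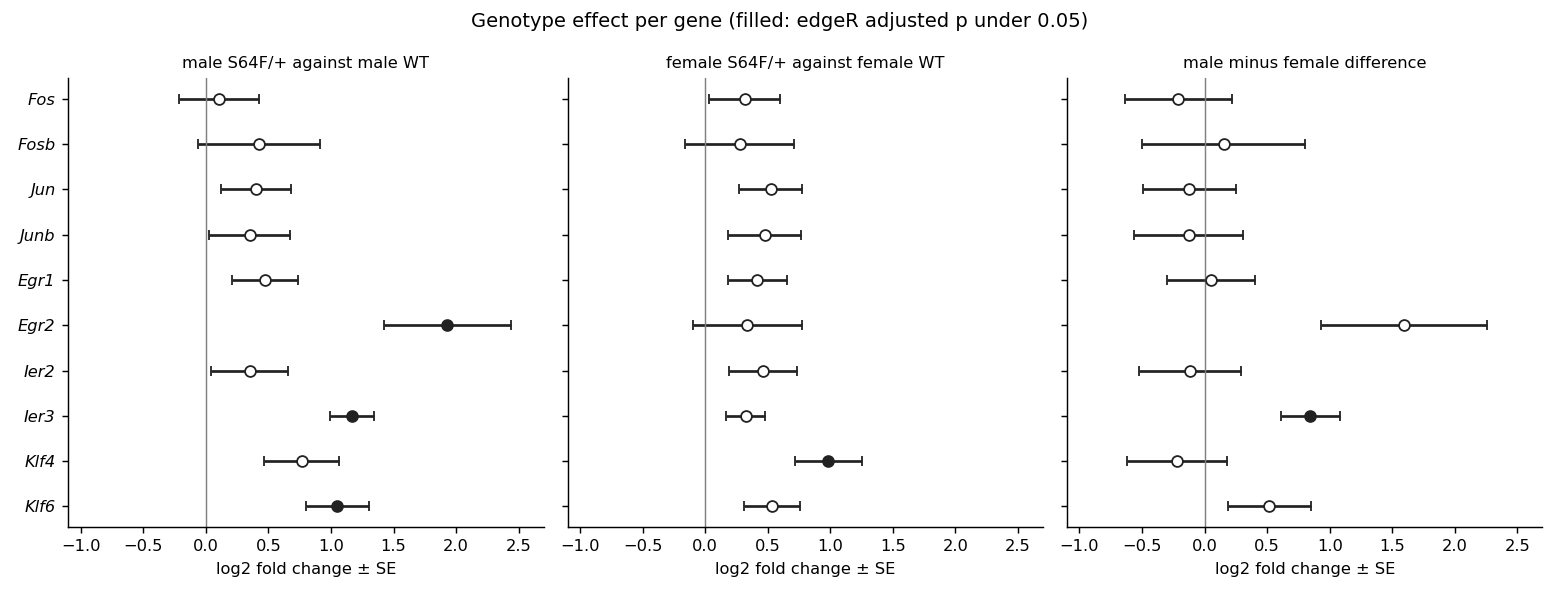
Estimated genotype effect of each gene (log2 fold change, bars 1 SE) in males, in females and as the male minus the female effect. Filled points have an edgeR adjusted p under 0.05: Egr2, Ier3 and Klf6 in males, Klf4 in females and Ier3 for the difference.

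In female islets Klf4 was the 1 gene of the 10 that was called, 1.98-fold higher in S64F/+. That share is near the 10.2% of all genes that were called higher, and 11.0% were called lower and 21.2% in either direction. All 10 estimates were above 0, as were 51.8% of those of all genes, with a median log2 fold change of 0.44 against 0.02 over all genes. No female range stood apart from that of the other genotype, where 5.28% of all genes had a higher range apart and 6.36% a lower one. Klf4 measured 30.2, 24.5, 35.9, 41.8 and 24.7 CPM in WT and 49.7, 35.7, 41.8, 84.3 and 98.1 CPM in S64F/+ females. Libraries 4 and 5 of the S64F/+ group were well above all others, library 1 was above the WT range, and libraries 2 and 3 were inside it. The log2 fold change was 0.99 ± 0.27 (edgeR adjusted p 0.0160), and it lost the call when only the 2 female groups were fitted (0.99, edgeR adjusted p 0.0512).

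The AP-1 genes were led in females by individual libraries. Fos measured 1099, 584, 802, 1596 and 849.6 CPM in WT and 1106, 772, 782, 1681 and 1798 CPM in S64F/+ females. Each genotype thus held both low and high libraries, and the estimate was 0.32 ± 0.28. Jun measured 558, 386, 469.9, 865 and 389 CPM in WT and 654, 546, 498, 970.3 and 1164 CPM in S64F/+ females. The WT library 4 exceeded 3 of the 5 S64F/+ libraries. The estimate for Jun was 0.52 ± 0.25 (edgeR adjusted p 0.151), and without female WT 4 it was 0.77 (adjusted p 0.0233). Junb, at 0.48 ± 0.29, had an edgeR adjusted p of 0.268, and of 0.0317 with the replicate number as a block, where its estimate was 0.52. With that block, which pairs same-numbered libraries within each sex, 2 genes were called in females, Klf4 and Junb. Fosb, from 238 to 689 CPM in WT and from 191 to 823 CPM in S64F/+ females, gave 0.27 ± 0.43.

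Egr2, called in males, had an estimate of 0.34 ± 0.43 in females. Its female WT libraries fell into 2 levels, with 4.03, 3.98 and 5.15 CPM in libraries 1, 4 and 5 and 1.20 and 0.862 CPM in libraries 2 and 3. The S64F/+ females lay close together at 4.37, 3.53, 3.41, 3.25 and 4.75 CPM, inside the WT range. Egr1 ran from 476 to 1052 CPM in WT and from 652 to 1398 CPM in S64F/+ females, with an estimate of 0.42 ± 0.24. Ier3 measured 6.98, 4.81, 7.80, 7.93 and 5.38 CPM in WT and 8.09, 7.05, 9.64, 8.29 and 8.04 CPM in S64F/+ females. The S64F/+ values lay mostly just above the WT values, with 1 of 5 inside the WT range, and the estimate of 0.32 ± 0.16 missed the threshold (edgeR adjusted p 0.150). Klf6 measured 38.8, 26.7, 47.6, 51.1 and 31.0 CPM in WT and 39.9, 46.2, 48.5, 75.5 and 71.3 CPM in S64F/+ females. As for Klf4, libraries 4 and 5 of the S64F/+ group stood above all others, and the estimate was 0.53 ± 0.22 (edgeR adjusted p 0.0998). Without female S64F/+ 1 the Klf6 estimate was 0.64 (edgeR adjusted p 0.0482). Ier2 gave 0.46 ± 0.27, with overlapping ranges.

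The genotype effect differed between the sexes for Ier3 among the 10. Over all genes tested, 4.47% were called for such a difference, 2.87% with the higher and 1.6% with the lower effect in males. The male minus female difference for Ier3 was 0.85 ± 0.23 (log2, SE; edgeR adjusted p 0.0471). It is close to the threshold: the call was lost in 12 of 18 fits that left out 1 library each, all but those without male S64F/+ 2, female WT 2, 4 or 5 or female S64F/+ 1 or 3, with an edgeR adjusted p of at most 0.0984, and without a filter on low counts (0.0687), while the difference itself stayed between 0.76 and 0.98 in the fits that left out a library. For Egr2 the difference was larger in size but less precise, at 1.59 ± 0.66 (edgeR adjusted p 0.152). For the other 8 genes it lay between -0.22 (Klf4, which turned to 0.017 with library-size scaling) and 0.52 (Klf6) and did not pass. That scaling raised the median of all genes by 0.24 here and the share of higher calls from 64.2% to 97.2%. So Egr2 and Klf6, which rose in males, and Klf4, which rose in females, were not shown to respond differently in the 2 sexes.

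Between the sexes within WT, none of the 10 was called by edgeR, where 2.36% of all genes were (1.73% higher in males), and 0 of the 10 had an unadjusted p under 0.05. DESeq2 called 0 as well. Males were estimated lower than females for 9 of 10 genes, from -0.92 ± 0.48 for Egr2 to -0.05 ± 0.27 for Jun, and higher for Klf4 (0.14 ± 0.29). Within S64F/+, Ier3 was the 1 gene called, higher in males by 0.70 ± 0.16 (log2, SE; edgeR adjusted p 0.00962), where 8.0% of all genes were called higher, 8.12% lower and 16.1% in either direction. The male S64F/+ range for Ier3, from 9.54 to 14.95 CPM, began just inside the female range, from 7.05 to 9.64 CPM. Only male S64F/+ 2 was within the female values. For the 4 AP-1 genes, Egr1 and Ier2, S64F/+ males were estimated lower than S64F/+ females, by at most -0.61 ± 0.29 for Ier2 (edgeR adjusted p 0.157), with overlapping ranges. With library-size scaling, which raised the median of all genes by 0.18 here and the share of higher calls from 49.6% to 88.1%, the estimate for Jun turned from -0.17 to 0.016.

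Much of the variation in these genes lay between libraries of the same group. The SD within groups (log2) was 0.78 for Egr2, 0.73 for Fosb, 0.50 for Junb, 0.48 for Fos, 0.46 for Ier2, 0.45 for Klf4, 0.42 for Jun, 0.41 for Egr1, 0.38 for Klf6 and 0.26 for Ier3. The median over all tested genes was 0.24, and 0.15 over those that averaged 10 CPM or more. Ier3 was therefore the steadiest of the 10 and the one with the smallest SE. Of the 18 libraries, 6 were high or low for all 10 genes at the same time. All 10 were above their group mean in male WT 3, male S64F/+ 4 and female WT 4, and 0 of 10 were above it in male S64F/+ 2, female WT 2 and female S64F/+ 2. The other 12 had 2 to 9 of 10 above the mean, among them 5 in male WT 4 and female S64F/+ 1, 4 in female WT 5 and 3 in male WT 1 and female WT 3. Female WT 4 had a median deviation of 0.72 (log2) above its group and female WT 2 of -0.59.

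**Figure D3:**
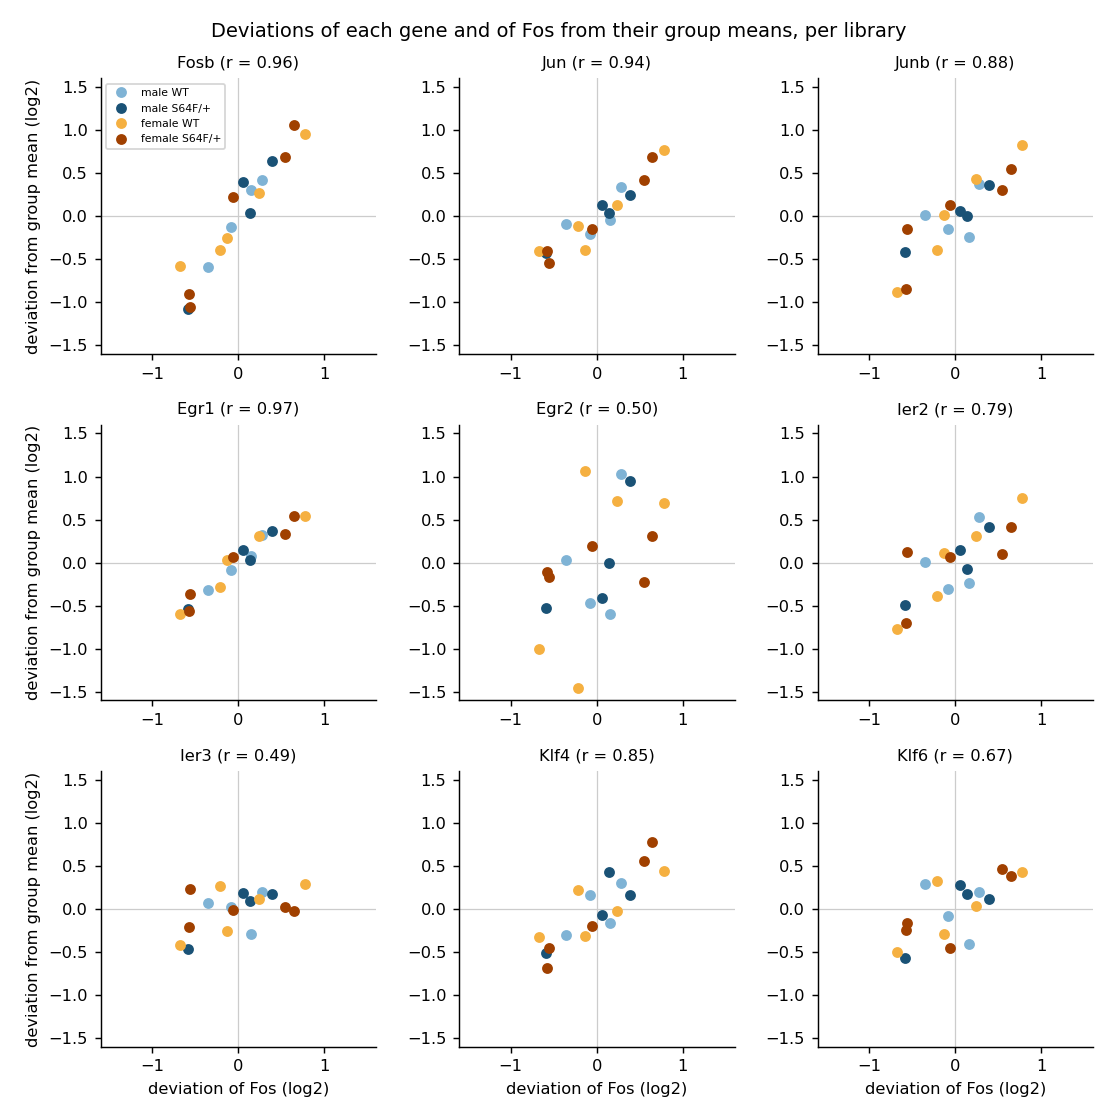
Deviation of each gene from its group mean (log2 CPM, y axis) against that of Fos (x axis) in the 18 libraries, coloured by group. Fosb, Jun and Egr1 follow Fos along a line (r of 0.94 to 0.97), while Egr2 and Ier3 scatter (r of 0.50 and 0.49).

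The deviations from the group mean were compared with those of Fos over the 18 libraries, with libraries permuted within groups and p-values adjusted over 10 relations. Egr1 followed Fos most closely, with a Pearson r of 0.97 and a Spearman rho of 0.98 (both adjusted permutation p 5e-05). Fosb had an r of 0.96 (rho 0.96), Jun 0.94 (rho 0.93), Junb 0.88 (rho 0.86), Klf4 0.85 (rho 0.84) and Ier2 0.79 (rho 0.78), with adjusted permutation p-values of at most 0.000517 for r and 0.00122 for rho. With female WT 2 and female WT 4 left out, the libraries farthest from the median of Fos, r for these 6 genes was still between 0.68 (Ier2) and 0.97 (Fosb). Klf6 had an r of 0.67 and a rho of 0.64 (adjusted permutation p 0.0152 and 0.0229), and did not pass without those 2 libraries, where r was 0.56 (adjusted permutation p 0.0746). The call was also lost without male S64F/+ 2 (0.0803), female WT 4 (0.0661) or female WT 5 (0.0525) alone.

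Egr2 and Ier3 were the 2 genes for which the relation with Fos did not pass the test. Egr2 had an r and a rho of 0.50 (adjusted permutation p 0.0558 and 0.0658), and 0.37 without those 2 libraries. Ier3 had an r of 0.49 and a rho of 0.38 (adjusted permutation p 0.0696 and 0.162), and 0.28 without them. Single libraries decided this too: Egr2 passed without female S64F/+ 4 (adjusted permutation p 0.0473), and Ier3 without female S64F/+ 1 (0.0251) or female S64F/+ 3 (0.0325). Whether their r differs from that of the other genes was not tested. Library depth, measured in the same way, had an r of 0.43 and a rho of 0.43 with Fos (adjusted permutation p 0.137 and 0.138), and an r of 0.62 (0.0245) without the 2 libraries. Depth thus moved with the level of Fos among the remaining 16 libraries, and its part in the shared variation was not tested. Over all 45 pairs of the 10 genes, r ran from 0.20 to 0.97 with a median of 0.73, and 15 pairs were over 0.8.

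Ratios of FPKM within a library show how closely single genes kept to Fos. Egr1 stood at 0.367 to 0.398 times the level of Fos in the 4 WT male libraries, although Fos itself ran from 130.2 to 219 FPKM. In S64F/+ males the ratio was 0.462 to 0.528, above all WT male values. How many of all genes have male ratios to Fos that stand apart in this way was not computed. In WT females it was 0.383 to 0.504 and in S64F/+ females 0.417 to 0.554, which overlap. The ratio of Jun to Fos was 0.740 to 1.01 in WT and 0.949 to 1.17 in S64F/+ males. Other ratios were looser: Junb to Fos ran from 0.411 to 0.697 in WT males, and Fosb to Fos from 0.0466 to 0.0874 in S64F/+ females. A fit with the level of Fos in each library as a covariate was added after this shared variation had been seen. In that edgeR fit the slope on Fos (log2 per log2, ± SE) was 1.43 ± 0.11 for Fosb, 0.88 ± 0.12 for Junb, 0.82 ± 0.07 for Egr1, 0.81 ± 0.08 for Jun, 0.79 ± 0.12 for Klf4 and 0.74 ± 0.15 for Ier2, all past the threshold. Of the 18364 genes tested, Fos aside, 266 had a slope past the threshold, these among them. The slopes of Egr2 (0.80 ± 0.35, edgeR adjusted p 0.302), Klf6 (0.52 ± 0.15, 0.0903) and Ier3 (0.25 ± 0.13, 0.382) did not pass. With Fos as covariate 6 genes were called higher in S64F/+ males in place of 3, with Jun (0.32, edgeR adjusted p 0.0324), Egr1 (0.38, 0.00272) and Klf4 (0.68, 0.00308) added to Egr2, Ier3 and Klf6. Over all 18364 genes tested, that fit called 3115 higher and 2388 lower in males, against 2819 and 2252 in the main fit. The covariate is itself one of the genes studied, so these values describe levels relative to Fos.

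Outside the 10, the genes whose deviations were most like those of Fos among the 14536 compared were Socs3, a feedback inhibitor of cytokine signalling (r 0.94 over 18 libraries), Zfp36, which destabilises messenger RNAs (0.92), Dusp1, a phosphatase of MAP kinases (0.92), Atf3, a stress-induced factor (0.90), Btg2 (0.89) and Jund (0.88). All 6 are on the lists of early-response genes used here, which were chosen with earlier results of these data known. The genes most like Egr2 were Arc (r 0.90), Egr3 (0.87), Ccdc103 (0.83), Lpcat1 (0.81), Lamp1 (0.81) and Egr4 (0.80). Arc, Egr3 and Egr4 are early-response genes and the other 3 are not on the lists. These likenesses were ranked and not tested.

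Other genes of the early response were counted in 6 lists with 58 genes, of which 57 had enough counts to be tested and Fosl1 did not. In males 22 of 57 were called higher and 2 lower, where 15.4% of all genes were called higher and 12.3% lower, and the median log2 fold change was 0.46 against -0.03 over all genes. In females 7 were called higher and 2 lower, where the shares over all genes were 10.2% and 11.0%, so the female count of higher calls is near that of all genes, and the median was 0.28 against 0.02. These shares are the background for each list that follows. The female count of 9 rested on single libraries: it was 4 without female WT 1, 5 without female WT 2 or female S64F/+ 5, and 14 without female WT 4. It was also 5 without a filter on low counts and 5 when only the female groups were fitted. Ier5, an immediate early relative of Ier2, fell in both sexes, by 0.97 ± 0.15 in males and by 1.05 ± 0.14 in females (log2, SE; edgeR adjusted p 0.000145 and 2.66e-05). Dusp5, a phosphatase that switches off ERK, also fell in both, by 0.48 ± 0.16 and by 0.64 ± 0.15 (edgeR adjusted p 0.0349 and 0.00461). The direction within the early response was thus not uniform.

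Of the other AP-1 and ATF genes, 3 of 6 were called higher in males (15.4% over all genes) and 0 of 6 in females (10.2%), and the list is too short to read the female count against that share. Fosl2, a Fos relative, went from 12.7 ± 3.75 to 38.1 ± 5.06 CPM in males (SD, n = 4 each), a rise of 1.59 ± 0.20 (log2, SE; edgeR adjusted p 1.79e-05), and from 13.9 ± 2.95 to 15.6 ± 2.57 CPM in females (SD, n = 5 each). The difference between the sexes for Fosl2 was 1.42 ± 0.27 (edgeR adjusted p 0.0107). Batf3 and Jdp2, both partners of Jun proteins, were the other 2 called in males, with 3.15 ± 0.54 and 0.78 ± 0.26, although Batf3 had a mean of only 0.1003 ± 0.040 CPM in WT males. The Jdp2 call was lost in 5 fits that left out 1 library, with male WT 2 (edgeR adjusted p 0.0512), male WT 3 (0.0632), male WT 4 (0.0907), male S64F/+ 1 (0.0865) or male S64F/+ 2 (0.0622) out. Within groups Fosl2 had an r of 0.15 with Fos.

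Among EGR and NR4A genes and the NAB corepressors, 3 of 7 were called higher in each sex, against 15.4% of all genes in males and 10.2% in females. Nab1 and Nab2, which bind EGR proteins and restrain them, were called in both: Nab1 rose by 0.68 ± 0.09 in males and by 0.26 ± 0.08 in females (edgeR adjusted p 1.97e-05 and 0.0236), and Nab2 by 0.80 ± 0.15 and 0.41 ± 0.13 (0.000563 and 0.0335). The third was Nr4a3 in males (1.64 ± 0.38, edgeR adjusted p 0.00370) and Nr4a2 in females (0.81 ± 0.24, 0.0240), both orphan nuclear receptors. The female calls were the less firm. That of Nab1 was lost without female WT 1 or female WT 2, that of Nab2 without female WT 1, 4 or 5 or female S64F/+ 2 or 5, and that of Nr4a2 without female WT 1, 2 or 3 or female S64F/+ 5 (edgeR adjusted p of at most 0.0937). With library-size scaling the female calls of Nab1 and Nab2 were lost as well (edgeR adjusted p 0.127 and 0.109). Nab1 (r -0.39) and Nab2 (r -0.32) had negative correlations with Fos within groups. Of the other early transcription factors, 5 of 10 were called higher in males and 1 of 10 in females, the latter near the share of all genes. Klf2, a Krüppel-like factor known from endothelium, rose in both sexes, from 11.5 ± 1.58 to 33.7 ± 3.17 CPM in males and from 14.6 ± 3.99 to 26.9 ± 9.45 CPM in females, by 1.55 ± 0.24 and 0.89 ± 0.21 (edgeR adjusted p 0.000164 and 0.00669). Ier5l, a relative of Ier5, rose in males by 1.35 ± 0.18 (edgeR adjusted p 2.87e-05).

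Feedback inhibitors of the response gave 5 of 12 higher and 1 lower in males, against 15.4% and 12.3% of all genes, and 0 higher and 1 lower in females, against 10.2% and 11.0%. The lower counts and the female counts are near those shares. Spry4, an inhibitor of growth factor signalling, rose in males by 0.98 ± 0.16 (edgeR adjusted p 0.000149) Tnfaip3, an inhibitor of NF-kappa B, by 1.09 ± 0.21 (0.000705) and Dusp6, a phosphatase of ERK, by 0.69 ± 0.15 (0.00255). Of the early effectors, 5 of 12 were called higher in males and 2 of 12 in females, against the same shares. Cyr61, a secreted matrix protein, had the largest rise among the male effectors called, by 1.79 ± 0.29 from 22.3 ± 7.78 to 77.5 ± 22.0 CPM (edgeR adjusted p 0.000293), and Rhob, a small GTPase, rose in both sexes by 0.98 ± 0.20 and 0.79 ± 0.18 (0.00149 and 0.00471). Mcl1, which protects cells from apoptosis, rose in males by 0.33 ± 0.07 (edgeR adjusted p 0.00220), and Gadd45b, a growth arrest gene, rose in females by 0.80 ± 0.24 (0.0271), a call lost without female WT 1, 2, 3 or 5 or female S64F/+ 4 or 5 (at most 0.0766). Of 10 heat shock and dissociation stress genes, Hspb1 alone was called in males (0.85 ± 0.27, edgeR adjusted p 0.0243) and Hspe1 alone in females (0.43 ± 0.15, 0.0498), and the list medians were -0.15 and 0.21. Neither call was firm: that of Hspb1 was lost without male WT 1, male WT 4 or male S64F/+ 1 (edgeR adjusted p of at most 0.0691), and that of Hspe1 in 15 of 18 fits that left out 1 library, all but those without male WT 2, female WT 4 or female S64F/+ 1 (at most 0.156), and with the replicate block (0.109). Their correlation with Fos within groups had a median r of 0.18, and that of the feedback inhibitors of 0.65.

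**Figure D4:**
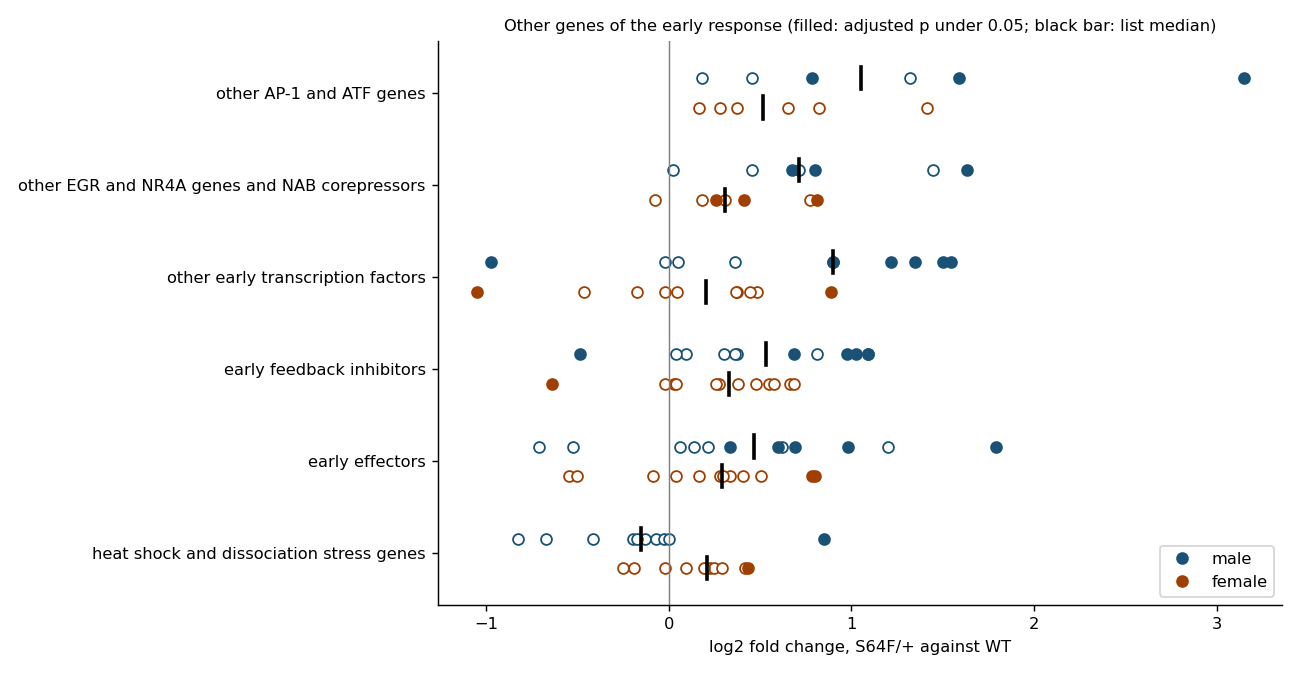
Log2 fold change, S64F/+ against WT, of each tested gene on 6 lists of other early-response genes, in males and in females. Filled points have an edgeR adjusted p under 0.05 and black bars are list medians. In males 21 of the 22 higher calls are on the first 5 lists, and the heat shock list has 1 higher call in each sex.

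Markers of several other cell types moved with genotype in the same libraries. Over all genes, 15.4% were called higher and 12.3% lower in males, and 10.2% and 11.0% in females. A count of 1 on a list is near these shares. In males the summed level of 8 Schwann cell markers ran from 33.8 to 38.0 CPM in WT and from 76.9 to 88.2 CPM in S64F/+, with 4 of 8 called higher. In females it ran from 30.8 to 47.4 CPM in WT and from 50.6 to 107.6 CPM in S64F/+, with 1 of 8 called higher. These ranges did not overlap in either sex. Egr2, a Schwann cell gene among other things, was not called in females, and its relation to these markers was not tested. The summed level of 10 stellate cell and fibroblast markers ran from 245 to 566 CPM in WT males and from 1612 to 2453 CPM in S64F/+ males, with 9 of 10 called higher, and overlapped between the female groups, at 319 to 881 and 301 to 1084 CPM, with 1 of 10 called. For 8 endothelial markers the sums were 447 to 621 and 856 to 992 CPM in males, with 6 of 8 called higher, and 514 to 718 and 548 to 747 CPM in females, with 0 of 8 called. Sums of 7 ductal markers ran from 455 to 473 and from 690.1 to 811 CPM in males and from 439.7 to 499 and from 509 to 581 CPM in females, with 4 and 3 of 7 called higher. Of 10 macrophage markers 7 were called higher and 1 lower in males and 6 higher in females, with sums of 89.7 to 131 and 130.7 to 169 CPM in males and 81.5 to 118 and 104 to 184 CPM in females. Of 10 beta-cell markers, 9 were called lower in males and 8 in females, in each sex with Mafa, the gene that carries the variant, among them. Their sums ran from 212700 to 290300 CPM in WT and from 127000 to 141200 CPM in S64F/+ males, which do not overlap, and from 167600 to 308400 (median 184400) and from 132500 to 244800 CPM (median 203900) in females, which do. The other hormone cells also moved. All 6 alpha-cell markers were called higher in females and 1 of 6 in males, with sums of 34100 to 42380 CPM in WT and 59790 to 82880 CPM in S64F/+ females, and of 34440 to 43450 and 35990 to 60160 CPM in males. Of 4 delta-cell markers 4 were called higher in females and 3 in males, with sums of 2721 to 4202 and 6046 to 8194 CPM in females and of 2603 to 5171 and 3615 to 5607 CPM in males. Of 7 acinar and 5 red blood cell markers 0 were called in either sex. Of 8 lymphocyte markers 5 had enough counts to be tested, and 1 was called higher and 1 lower in each sex. Sums over all 8 were small. In females they ran from 5.74 to 11.2 CPM in WT and, lower and without overlap, from 3.37 to 4.69 CPM in S64F/+. In males they overlapped, at 3.10 to 8.32 CPM in WT and 1.85 to 4.22 CPM in S64F/+. Acinar sums varied widely within groups, from 2370 to 23360 CPM in WT and 3529 to 15100 CPM in S64F/+ males. In females they ran from 9722 to 36830 and from 13480 to 32840 CPM. No marker on these lists was at 0 in all libraries, and the part of these cell types in the higher Egr2, Ier3, Klf6 and Klf4 was not tested.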

How the data were processed

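Per the labels' protocols, RNA was extracted from whole islets with a column kit and sequenced paired-end on an Illumina NovaSeq6000. The deposited tables hold raw counts per gene, made by the authors on GRCm38, and FPKM values, which the authors derived from those counts. Tools listed in the submitters' processing notes are DESeq2, FastQC, featureCounts, MultiQC and STAR, without version or role. For annotation, strand setting and trimming nothing is given in the sources used here. Spike-ins (99 features, 0 counts) were left out, and coordinates came from GENCODE M21.

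Counts were fitted in R 4.3.3 with edgeR 4.0.16 (limma 3.58.1) by the quasi-likelihood test with robust estimation. Scaling was by TMM, and filterByExpr by group (minimum count 10, minimum total 15) left 18364 genes. The fit had 1 coefficient per group over all 18 libraries and a biological coefficient of variation of 24.4%, and p-values were two-sided and adjusted by Benjamini-Hochberg within each comparison. The SE is the log2 fold change divided by the square root of F. Correlations with Fos used log2 CPM (prior count 2) with group means removed and 100000 two-sided permutations within groups. DESeq2 1.42.0, 2 other scalings, no filter, a replicate block, a fit of only the groups compared and leaving out each library were alternatives. The fitting script was tested on simulated data.

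The 10 genes, the other early-response lists and the marker lists were chosen with earlier results of these data known. Named were the 10 genes, up to 3 called genes per list and genotype comparison with the smallest p, genes called for a difference between the sexes, and the 6 genes most like Fos and like Egr2. Replicate counts differed beyond sampling noise (chi-square per degree of freedom at least 21.7). Same-numbered female libraries deviated together (r from 0.11 to 0.42, 5 of 5 pairs over 0.1) and so met the criterion for pairs, although the labels state no pairing. Of the 5 female WT libraries, only 3 were most like the S64F/+ library of their own number. All estimates and correlations in the text are unpaired except where the replicate block is named. Same-numbered male libraries did not deviate together (r from -0.25 to 0.19, 1 of 4 over 0.1). The replicate block nevertheless paired same-numbered libraries in both sexes for the genotype effects and their difference. For the sex differences within a genotype it joined same-numbered libraries of all 4 groups, for which the labels give no basis.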

Additional observations from a re-analysis of the deposited data

Results flagged for a closer look

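In S64F/+ males, library 2 was the lowest for Ier3, at 9.54 CPM, set apart from the other 3 libraries at 14.05 to 14.95 CPM. It was the 1 such value among 40 combinations of gene and group that were checked, where chance alone sets apart about 1 in 20. The same library was the lowest of its group for all 10 genes.

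Genotype effects that differed between the sexes by the edgeR test of the difference itself (male minus female, log2) were 0.85 for Ier3, 1.42 for Fosl2, 2.495 for Batf3, 0.42 for Nab1, 0.98 for Ier5l, 1.175 for Bhlhe40, 1.11 for Tnfaip3 and -0.85 for Hspe1. Bhlhe40 went from 19.8 ± 4.05 to 46.2 ± 7.47 CPM in males (SD, n = 4 each) and from 24.4 ± 6.79 to 25.1 ± 4.04 CPM in females (SD, n = 5 each). Tnfaip3 went from 5.55 ± 0.94 to 11.8 ± 3.66 CPM in males and from 7.56 ± 0.62 to 7.42 ± 1.66 CPM in females. In fits that left out 1 library, the Fosl2 difference kept its call in all 18, while the call was lost in 12 of 18 for Ier3, 13 for Batf3, 14 for Nab1, 6 for Ier5l, 6 for Bhlhe40, 7 for Tnfaip3 and 14 for Hspe1. With the replicate number as a block the call was lost for Batf3 (edgeR adjusted p 0.0528), Ier5l (0.0517), Nab1 (0.0744), Tnfaip3 (0.0691) and Hspe1 (0.0813). Without a filter on low counts it was lost for Ier3, Batf3, Bhlhe40, Ier5l, Nab1 and Hspe1 (at most 0.107).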

How the results depend on the processing

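Scaling by relative log expression changed no call or direction among the results compared. The count of male calls among the 10 genes was 5 with library-size scaling and 6 with the level of Fos as covariate, a fit chosen after seeing the data, and 3 to 4 when 1 library was left out. Over all 18364 genes, 4248 were called higher in males with library-size scaling and 3115 with Fos as covariate, against 2819 in the main fit. The female count was 2 with the replicate block, 0 when only the female groups were fitted, and 1 to 2 when 1 library was left out (2 without female WT 4 or female S64F/+ 1). The count for the male minus female difference was 0 without a filter on low counts, and 0 to 1 when 1 library was left out. The count within S64F/+ stayed at 1 and that within WT at 0. For other early-response genes the male count was 18 to 26 and the female 4 to 14 with 1 library out, and the female count was 5 without a filter and 5 for the female groups alone. Genes correlated with Fos numbered 6 to 8.

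The replicate block changed no other count by over 1.5 times. For the sex differences the block joined same-numbered libraries of all 4 groups. It turned the sex difference within WT for Jun to 0.049 and that within S64F/+ for Klf4 to 0.022. Library-size scaling turned the male minus female difference to 0.0091 for Fos, 0.11 for Jun, 0.098 for Junb, 0.11 for Ier2 and 0.017 for Klf4, and the sex difference within S64F/+ to 0.016 for Jun and 0.11 for Klf4. With Fos as covariate the female effect for Fosb was -0.28, the male minus female difference 0.0625 for Jun and 0.030 for Klf4, the sex difference within WT 0.14 for Jun, and that within S64F/+ 0.30 for Fosb, 0.21 for Jun and 0.31 for Klf4. With 1 library left out, signs changed for the male effect of Fos (-0.033 to 0.27), the female effect of Fosb (-0.034 to 0.59), the male minus female difference of Fosb (-0.17 to 0.46), Jun (-0.37 to 0.079), Junb (-0.37 to 0.044), Egr1 (-0.10 to 0.20), Ier2 (-0.33 to 0.097) and Klf4 (-0.38 to 0.0089), the sex difference within WT of Fos (-0.38 to 0.0059) and Jun (-0.18 to 0.19), and that within S64F/+ of Jun (-0.29 to 0.027) and Klf4 (-0.24 to 0.14). None of these had passed the test, and the cause was not tested.

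Among the 10 genes Egr2 had the fewest counts, down to 17 in 1 library.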
